A study of Homo sapiens with 35 samples.

Results

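Metallothioneins are small, cysteine-rich proteins that bind zinc and copper in the cytosol. Free zinc is sensed by the zinc-finger transcription factor MTF1, which binds metal response elements in promoters and drives transcription of the metallothionein genes and of SLC30A1, the transporter that carries zinc out through the plasma membrane. Metallothionein transcripts are therefore widely read as a gauge of free zinc in cells, and they are also known to respond to oxidants and to glucocorticoids. The 7 genes described here are the metallothioneins MT2A, MT1X, MT1E, MT1F and MT1G, together with SLC30A1 and MTF1. They were taken by symbol from the 19665 protein-coding entries of the count table, and all 7 had counts. The set was chosen with earlier results of these data known.

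The RNA came from RPMI-8226, an established human line of multiple myeloma, which is a cancer of plasma cells. The cells received 750 nM carfilzomib, an irreversible inhibitor of the proteasome, for 1 h, and cells were then collected at 6 time points (day 1, day 2 and every 48 h up to day 10). Day 0 served as the untreated reference (the sample labels list carfilzomib for it as well, whereas the study's methods place its collection before the drug). Every day held 5 libraries, 35 in all, from subcultures of 1 expanded culture of 1 line, and thus p-values measure the spread between subcultures rather than between separate experiments. On day 0 the density was set with fresh medium before the pulse, and fresh medium was given again after it. Medium was replaced every 48 h. Day 1 fell before the first of these changes, and cells of day 2 and later were taken just before such a change. Medium age can therefore differ between day 0 and the later days, and its part cannot be told apart from that of the drug. Cell density was adjusted again on days 6 and 8.

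Library totals ranged from 6519392 to 10962890 counts, and 3 counts in a library corresponded to 0.322 to 0.601 CPM (counts scaled to 1000000 protein-coding counts of the library, with TMM factors). This depth was ample for SLC30A1 and MTF1 and thin for MT1E and MT1F. All 7 markers of plasma cells that were examined were detected, and their summed level was 1486 to 1594 CPM on day 0 and 1108 to 1230 CPM on day 1. Of 12 markers of other cells, COL1A2 had no count and 4, COL1A2 included, stayed under 1 CPM in every library, whereas EPCAM, KRT8 and KRT18 were detected throughout, and the summed level of all 12 was 366 to 428 CPM on day 0 and 423 to 446 CPM on day 1. Leaving out these 3 epithelial genes, the sum was 10.6 to 17.0 CPM on day 0 and 6.27 to 8.81 CPM on day 1. Whether these shifts bear on the values below was not tested. In RNA from a whole culture, fewer cells of a kind and less RNA per cell cannot be told apart.

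The 5 metallothionein genes lie in one cluster on chromosome 16. In GENCODE release 44 (build GRCh38), MT2A spans 56608584 to 56609497, MT1E 56625475 to 56627112, MT1F 56657731 to 56660698 and MT1X 56682470 to 56684196 on the plus strand, and MT1G spans 56666730 to 56668065 on the minus strand. SLC30A1 (211571568 to 211579161) and MTF1 (37809574 to 37859592) both lie on the minus strand of chromosome 1. Because MTF1 acts through metal response elements, the 250 bases before the annotated start are shown for the 4 genes with an entry in the RefSeq promoter table used here (build GRCh38.p14), each 5′ to 3′ on the strand of its gene. Capitals mark matches to the core of the element (TGCACNC or TGCGCNC, on either strand), and no matches overlapped.
MT2A, chr16:56608334-56608583, plus strand: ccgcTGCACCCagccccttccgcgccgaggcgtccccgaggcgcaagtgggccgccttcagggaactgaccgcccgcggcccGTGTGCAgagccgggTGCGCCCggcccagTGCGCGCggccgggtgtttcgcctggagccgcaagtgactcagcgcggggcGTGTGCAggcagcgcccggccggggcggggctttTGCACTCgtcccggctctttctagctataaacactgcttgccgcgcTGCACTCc
MT1X, chr16:56682220-56682469, plus strand: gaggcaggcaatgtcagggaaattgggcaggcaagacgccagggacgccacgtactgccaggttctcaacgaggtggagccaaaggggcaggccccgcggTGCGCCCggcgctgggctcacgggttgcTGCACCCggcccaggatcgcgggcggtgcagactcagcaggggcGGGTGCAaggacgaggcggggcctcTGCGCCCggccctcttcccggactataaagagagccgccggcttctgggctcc
SLC30A1, chr1:211579162-211579411, minus strand: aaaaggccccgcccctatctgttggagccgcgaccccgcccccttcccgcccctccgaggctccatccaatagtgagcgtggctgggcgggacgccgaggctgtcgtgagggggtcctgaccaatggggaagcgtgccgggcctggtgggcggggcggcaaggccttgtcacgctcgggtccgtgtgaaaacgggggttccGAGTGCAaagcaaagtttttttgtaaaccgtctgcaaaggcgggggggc
MTF1, chr1:37859593-37859842, minus strand: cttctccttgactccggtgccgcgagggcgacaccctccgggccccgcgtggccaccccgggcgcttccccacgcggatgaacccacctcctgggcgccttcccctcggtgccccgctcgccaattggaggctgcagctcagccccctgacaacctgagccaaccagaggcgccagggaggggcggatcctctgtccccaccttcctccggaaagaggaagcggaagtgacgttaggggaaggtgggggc

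The MT2A promoter held 7 matches, that of MT1X held 4, that of SLC30A1 held 1 and that of MTF1 none. Among 35116 promoter windows of the same length, 24.8% held at least 1 match, 0.370% held at least 4, and 0.0313% held at least 7. A match to the antioxidant response element (TGACNNNGC, either strand), which binds NRF2, was found once each in the windows of MT2A, MT1X and SLC30A1 and not in that of MTF1, against 10.9% of all windows with at least 1. The word GAANNTTC, which is contained in heat shock elements, was in none of the 4 windows and in 5.78% of all. These are matches of letters, and binding was not measured.

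Compared to day 0, transcripts of MT1X, MT2A, MT1G, SLC30A1 and MTF1 were lower on some or all days after the pulse. No member was significantly higher on any day. MT1X, SLC30A1 and MTF1 were lower on all 6 days, and the share of all entries lower on every day was not determined. MT1G was low on days 1 and 10 and near its day 0 level in between, whereas MT2A was low on days 1, 2 and 10, with its lowest level on day 2 and levels near those of day 0 on days 6 and 8. MT1E and MT1F had so few counts that they carry little of this description. Differences were tested with the quasi-likelihood test of edgeR on all 35 libraries, with adjustment over the 17999 protein-coding entries that had a count, and a member was called at an adjusted p of at most 0.05. All comparisons with day 0 share the same 5 control libraries.

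Changes were frequent across the transcriptome, and the counts of members have to be read against that. On day 1, 6 of 7 members were called lower, compared with 27.3% of all tested entries called lower and 25.4% called higher. On day 2, 4 members were lower (24.4% of all entries lower, 23.2% higher). On each of days 4, 6 and 8, 3 members were lower, against 20.1%, 17.0% and 18.6% of all entries, while 19.0%, 17.5% and 18.2% of entries were higher. On day 10, 5 members were lower, when 15.8% of entries were lower and 16.1% higher. The median log2 fold change of the 7 members was -1.34 on day 1 (the value of the sparse MT1E), then -0.88 (day 2), -0.70 (day 4), -0.13 (day 6), -0.069 (day 8) and -1.41 (day 10), while that of all 17999 tested entries stayed between -0.061 and 0 on these days. A low-count filter (filterByExpr) was passed by 12301 entries, 5 members among them, but not by MT1E and MT1F.

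**Figure D1:**
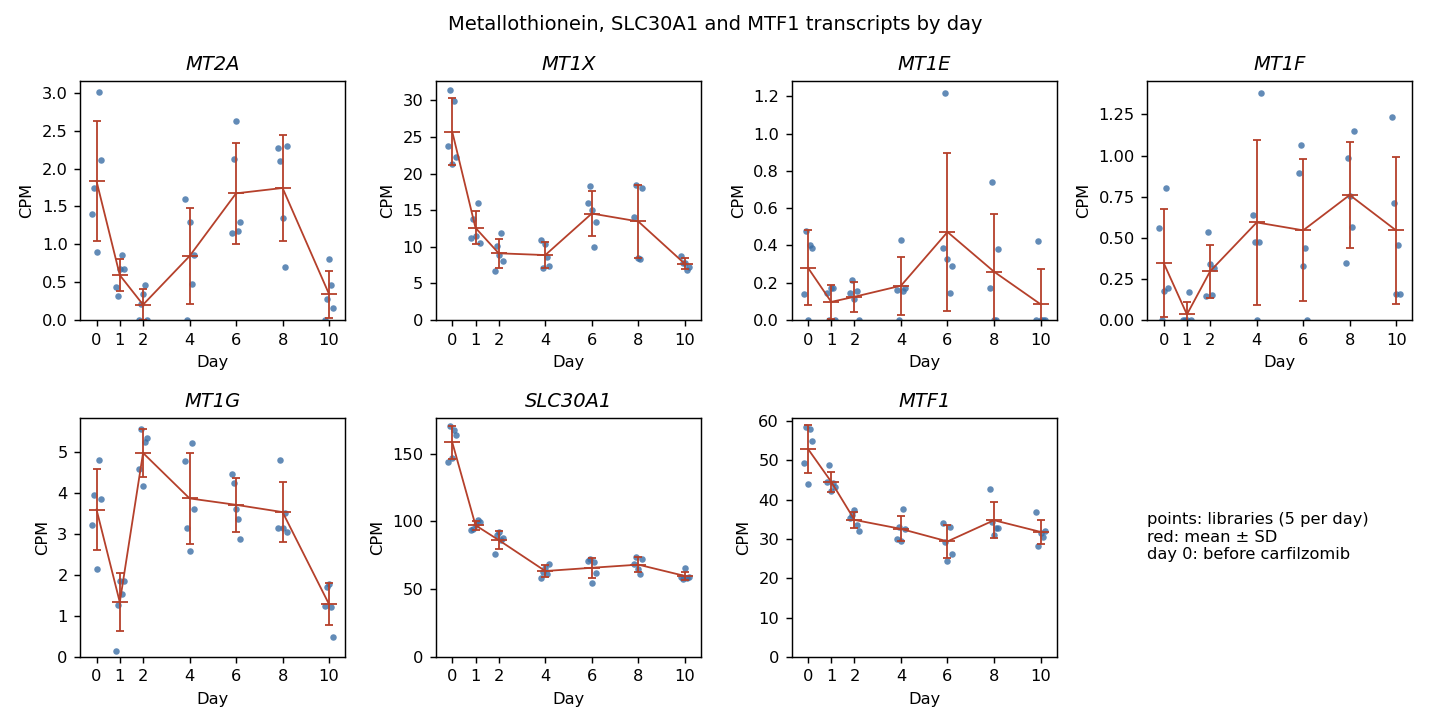
Transcript levels in CPM (y axis, from 0) of the 7 genes against day (x axis), with 1 point per library and red bars for mean ± SD (n = 5 per day). SLC30A1 and MT1X lay below every day 0 library on each later day, MT1G dipped on days 1 and 10 only, and MT1E and MT1F stayed near the level of a few counts.

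MT1X was the metallothionein with the most counts (751 over the 5 libraries of day 0). Its levels on day 0 were 23.8, 31.4, 21.3, 29.9 and 22.3 CPM, and on day 1 they were 11.2, 13.9, 11.5, 15.95 and 10.5 CPM. On day 2, MT1X measured 6.75, 10.1, 8.90, 11.9 and 8.02 CPM, and on day 4 it measured 11, 7.09, 10.3, 8.56 and 7.42 CPM. The groups did not overlap, and each library of days 1 to 4 was below the lowest day 0 library. MT1X then stood at 15.99, 18.4, 15.1, 9.99 and 13.4 CPM on day 6 and at 14.1, 18.5, 8.41, 8.32 and 18.0 CPM on day 8. By day 10 it was at 8.79, 7.81, 7.75, 6.88 and 7.22 CPM, with the lowest daily mean of the series (7.69 ± 0.73 CPM; SD, n = 5). The log2 fold change against day 0 was -1.03 ± 0.18 (SE; edgeR adjusted p = 5.1e-06) on day 1, -1.53 ± 0.19 (adjusted p = 7.26e-09) on day 4, -0.82 ± 0.18 (adjusted p = 0.000235) on day 6 and -1.74 ± 0.19 (adjusted p = 9.16e-10) on day 10. Between time points, MT1X rose from day 4 to day 6 (log2 fold change 0.71 ± 0.19, edgeR adjusted p = 0.01) and fell from day 8 to day 10 (-0.81 ± 0.20, adjusted p = 0.00503), with overlapping groups in both steps.

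MT2A, often the most abundant metallothionein of human cells, was scarce in this line, with 52 counts over all of day 0. On day 0 its counts were 10, 11, 5, 15 and 11, on day 1 they were 3, 2, 4, 5 and 4, and on day 2 they were 0, 2, 3, 3 and 0. These correspond to a mean of 1.83 ± 0.80 CPM (SD, n = 5) on day 0, 0.593 ± 0.215 CPM on day 1 and 0.203 ± 0.205 CPM on day 2, without overlap with day 0. Counts of MT2A on day 6 were 9, 14, 16, 8 and 9 and on day 8 they were 13, 17, 9, 5 and 12, which overlapped the day 0 values. On day 10 they were 0, 2, 5, 3 and 1, and all 5 libraries again lay below day 0 in CPM. Accordingly, MT2A was lower on day 1 (log2 fold change -1.60 ± 0.55, edgeR adjusted p = 0.0138), day 2 (-3.01 ± 0.62, adjusted p = 7.27e-05) and day 10 (-2.33 ± 0.59, adjusted p = 0.00183). The log2 fold change was -0.13 ± 0.49 on day 6 and -0.07 ± 0.49 on day 8, neither of which passed the test. On day 4 it was -1.08 ± 0.52 (edgeR adjusted p = 0.104), a value that passed without replicate 1 of day 4 (-1.42, adjusted p = 0.0473) and with all transcript biotypes summed (-1.08, adjusted p = 0.0452). The fall from day 8 to day 10 was significant (-2.26 ± 0.59, edgeR adjusted p = 0.00835), as was the rise from day 2 to day 4 (1.93 ± 0.66, adjusted p = 0.0224). That rise lost its call when replicate 1 or 5 of day 2 or replicate 1 or 3 of day 4 was left out (adjusted p = 0.0623, 0.0586, 0.0939 and 0.0688), with all biotypes summed (1.39, adjusted p = 0.0541) and in a fit of only these days (1.95, adjusted p = 0.0686).

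MT1G was low on days 1 and 10 and not in between. Its levels were 3.23, 3.97, 2.14, 4.81 and 3.85 CPM on day 0 and 0.147, 1.26, 1.86, 1.54 and 1.86 CPM on day 1. By day 2 they were 4.59, 5.58, 4.17, 5.24 and 5.35 CPM. All libraries of day 1 were below, and all libraries of day 2 above, the other of these days, and the single lowest library of day 1 held 1 count. On days 4 to 8, MT1G ranged from 2.59 to 5.23 CPM, within the spread of day 0 apart from its upper end, and on day 10 it was 1.23, 1.70, 1.78, 1.22 and 0.481 CPM, below every day 0 and every day 8 library. The log2 fold change against day 0 was -1.44 ± 0.32 (edgeR adjusted p = 0.000201) on day 1 and -1.46 ± 0.32 (adjusted p = 0.000339) on day 10. Between neighbouring days MT1G rose from day 1 to day 2 (1.91 ± 0.31, edgeR adjusted p = 1.75e-06) and fell from day 8 to day 10 (-1.46 ± 0.32, adjusted p = 0.00129). From day 2 to day 8 its log2 fold changes against day 0 did not exceed 0.47 in size, and none passed the test.

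The ratio of MT1G to MT1X was looked at because of the values above, so it is given as a description, without a test. Its log2 value was -2.87 ± 0.31 (SD, n = 5) on day 0, -0.85 ± 0.29 on day 2 and -1.22 ± 0.48 on day 4. Relative to day 0 it was higher on the log2 scale by 2.02 (day 2), 1.65 (day 4), 0.91 (day 6) and 1.00 (day 8), and it differed by -0.77 on day 1 and 0.16 on day 10. All 5 libraries of days 2, 4 and 6 and 4 of 5 of day 8 exceeded every day 0 library, as did 3 of 5 of day 10 and 1 of 5 of day 1. Replicate 1 of day 1 and replicate 5 of day 10 held only 1 and 3 MT1G counts, with log2 ratios of -6.25 and -3.91. With 1 CPM added to both genes, the difference from day 0 was -0.048 on day 1 and 0.59 on day 10. On day 1 no pair among MT2A, MT1X and MT1G passed a test of its ratio against day 0. After adding 1 CPM, the log2 differences were 0.18, 0.23 and 0.05 (exact permutation adjusted p = 0.522, 0.526 and 0.857 over the 10 pairs of the 5 genes). The added 1 CPM was large beside MT2A (mean 1.83 CPM on day 0 and 0.593 CPM on day 1) and MT1G (3.60 and 1.33 CPM). This test therefore cannot decide whether these genes moved by the same amount. Of the 10 pairs, 4 passed, each of them containing MT1E or MT1F, whose means on both days were below 1 CPM. None passed with 0.25 CPM in place of 1 CPM.

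MT1E and MT1F were near the limit of detection. MT1E had 1, 3, 0, 2 and 2 counts on day 0 and 1, 0, 1, 1 and 0 counts on day 1, a ratio of day 0 to day 1 of 2.81 after scaling (95% interval 0.675 to 16.5, counting error only). No comparison of MT1E with day 0 passed the test, except that on day 10 it did so without replicate 2, the only library with a count (log2 fold change -3.94 in place of -1.40, edgeR adjusted p = 0.025). MT1F had 4, 0, 1, 4 and 1 counts on day 0, a single count in replicate 4 of day 1, and 1, 5, 3, 1 and 2 counts on day 2. On days 4, 6, 8 and 10 its log2 fold changes against day 0 were 0.73, 0.65, 1.10 and 0.62, and none passed the test. Although MT1F was called lower on day 1 (ratio of day 0 to day 1 of 10.6, interval 1.501 to 458; edgeR adjusted p = 0.0291), this call was lost when replicate 1 or 4 of day 0 or any of replicates 1, 2, 3 and 5 of day 1 was left out (adjusted p = 0.0583 to 0.0935). The difference between day 2 and day 1 (log2 fold change 2.66 ± 1.08, edgeR adjusted p = 0.0457) was lost without any one of 7 libraries, namely replicates 1, 2, 3 and 5 of day 1 and 2, 3 and 5 of day 2 (adjusted p = 0.0601 to 0.118).

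Metallothionein genes resemble one another, which limits how exactly reads can be assigned. Of the 31-base words in the coding transcripts of each gene, 12.5% in MT1X, 13.03% in MT1F, 15.6% in MT1E, 16.2% in MT2A and 27.2% in MT1G also occurred in transcripts of the 22 other metallothionein genes and pseudogenes of the annotation. Thus reads from most of each transcript were distinguishable, although counts could be shared most readily with MT1G. Of the 7 further protein-coding family members in the table, MT1A (52 counts over 35 libraries), MT3 (46) and MT1H (32) had counts, and MT1B, MT1HL1, MT1M and MT4 had none. MT1H was at 8 counts on day 0 and at 0 on day 1. If 3 counts over the 5 libraries of day 1 are assumed, this is 2.81-fold lower, with the counting error of day 0 left out. It was called lower on day 1 (edgeR adjusted p = 0.00879) and on day 2, when it had 1 count (ratio of day 0 to day 2 of 10.4, 95% interval 1.40 to 462; edgeR adjusted p = 0.0357). Whether these calls of MT1H hold with single libraries left out was not checked. MT1A had 4 counts on day 0, 1 on day 1 and 13 on day 2, and MT3 had 2, 0 and 6, and neither passed the test against day 0 on any day.

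SLC30A1 is the export arm of the zinc response, and its transcripts were well measured. On day 0 its levels were 144, 170.1, 146, 167 and 164 CPM, and on day 1 they were 93.5, 94.1, 97.0, 101 and 99.6 CPM. Levels of 75.5, 89.97, 91.8, 85.9 and 87.3 CPM followed on day 2 and of 57.8, 62.7, 65.8, 61.3 and 68.7 CPM on day 4. The groups of these 4 time points were fully separated, each later one below the one before. SLC30A1 then stayed between 54.3 and 74.0 CPM on days 6 and 8 and at 58.6, 57.5, 65.2, 57.9 and 59.0 CPM on day 10, and no library after the pulse reached the lowest day 0 value. The log2 fold change against day 0 was -0.71 ± 0.07 (edgeR adjusted p = 2.36e-12) on day 1, -0.88 ± 0.07 (adjusted p = 5.14e-15) on day 2, -1.32 ± 0.07 (adjusted p = 1.07e-19) on day 4 and -1.41 ± 0.07 (adjusted p = 3.77e-20) on day 10. On day 10 this amounted to a mean level 2.65-fold lower than on day 0. The step from day 2 to day 4 was -0.45 ± 0.07 (edgeR adjusted p = 1.33e-06). That from day 1 to day 2 was -0.17 ± 0.07 (adjusted p = 0.0383), which did not pass without replicate 3, 4 or 5 of day 1 or replicate 1, 4 or 5 of day 2 (adjusted p = 0.0508 to 0.1497), nor without scaling factors (adjusted p = 0.0648). That from day 8 to day 10 was -0.19 ± 0.07 (adjusted p = 0.0864) and passed without replicate 4 of day 8 (-0.23, adjusted p = 0.0425) and with DESeq2 (-0.19, adjusted p = 0.0467).

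MTF1, the zinc sensor itself, was lower too, though to a smaller extent. It stood at 49.4, 58.4, 43.97, 58.1 and 54.9 CPM on day 0 and at 44.5, 48.8, 42.2, 44.3 and 43.1 CPM on day 1, with overlapping groups. On day 2 it was at 35.3, 36.0, 37.4, 33.6 and 31.9 CPM and on day 6 at 34.1, 29.2, 24.4, 33.0 and 26.1 CPM, below every day 0 library. The levels of day 10 were 36.8, 28.3, 31.5, 30.4 and 32.1 CPM, likewise without overlap. The log2 fold change on day 1 was small (-0.25 ± 0.09, edgeR adjusted p = 0.0192). It was not significant without scaling factors (-0.13, adjusted p = 0.254), with all transcript biotypes summed (-0.18, adjusted p = 0.0673) or without replicate 2 of day 0 (-0.22, adjusted p = 0.0527). From day 2 onwards the decrease was clear, with log2 fold changes of -0.60 ± 0.09 on day 2, -0.84 ± 0.09 on day 6 (adjusted p = 3.49e-07 and 6.5e-10) and -0.74 ± 0.09 on day 10 (adjusted p = 1.89e-08). MTF1 also fell from day 1 to day 2 (-0.35 ± 0.09, edgeR adjusted p = 0.00152).

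**Figure D2:**
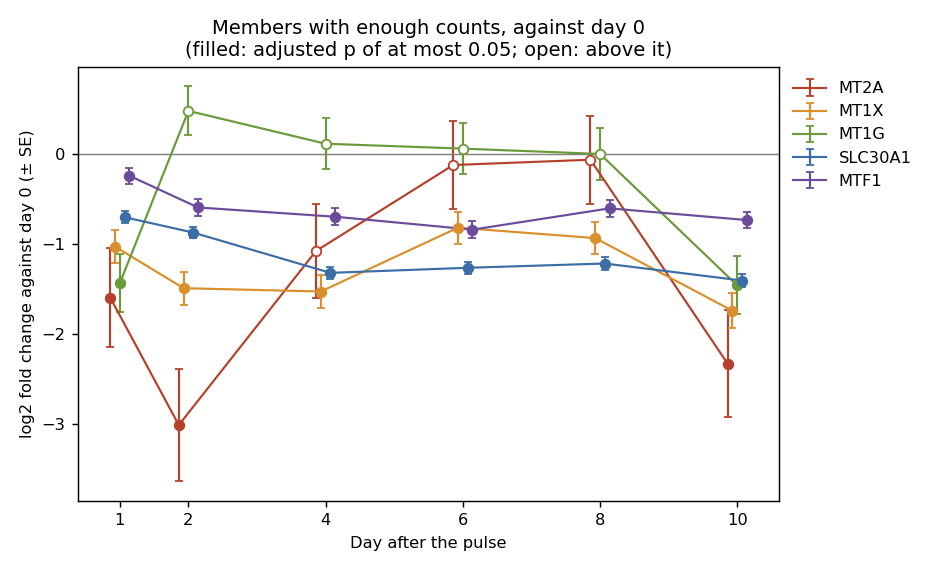
Log2 fold change against day 0 (y axis, ± SE) by day after the pulse (x axis) for the 5 members that passed the low-count filter; filled circles have an edgeR adjusted p of at most 0.05 and open circles do not. SLC30A1 went from -0.71 on day 1 to -1.41 on day 10, whereas MT1G and MT2A were close to 0 on days 6 and 8.

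Between consecutive time points, 2 members fell and 2 rose from day 1 to day 2, when 19.4% of all tested entries fell and 20.2% rose. SLC30A1 and MTF1 were the members that fell, and MT1F and MT1G were those that rose. From day 2 to day 4, SLC30A1 fell and MT2A rose (16.7% of entries lower, 13.9% higher). From day 4 to day 6, MT1X was the 1 member that rose and none fell (5.98% lower, 6.09% higher). No member changed from day 6 to day 8 by edgeR or by DESeq2 (1 member, MTF1, at an unadjusted p under 0.05 in edgeR), when 1.53% of entries were lower and 1.03% higher. Finally, MT1X, MT2A and MT1G all fell from day 8 to day 10 and no member rose, in a step in which 4.97% of all entries were lower and 5.08% higher.

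MT1X also had a separate entry for transcripts with a retained intron, which was noticed after the values had been seen and is described without a test. This entry held 146 counts on day 0 and then 49 (day 1), 35 (day 2), 19 (day 4), 49 (day 6), 31 (day 8) and 29 (day 10). Before the pulse its level was 4.97 ± 0.82 CPM (SD, n = 5), and later it was 1.60 ± 0.48 CPM on day 1, 0.609 ± 0.444 CPM on day 4 and 0.923 ± 0.445 CPM on day 10. On each of the 6 days, all 5 libraries lay below every day 0 library. Retained-intron counts made up 16.4% ± 3.3 of MT1X counts (retained-intron plus protein-coding) on day 0, 6.202% ± 3.53 on day 4 and 10.4% ± 4.2 on day 10. All 5 libraries of days 4 and 6 lay below the day 0 libraries in this share, as did 4 on days 8 and 10, 3 on day 2 and 2 on day 1. Both entries rest on the division of the same reads between overlapping transcripts of one gene.

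**Figure D3:**
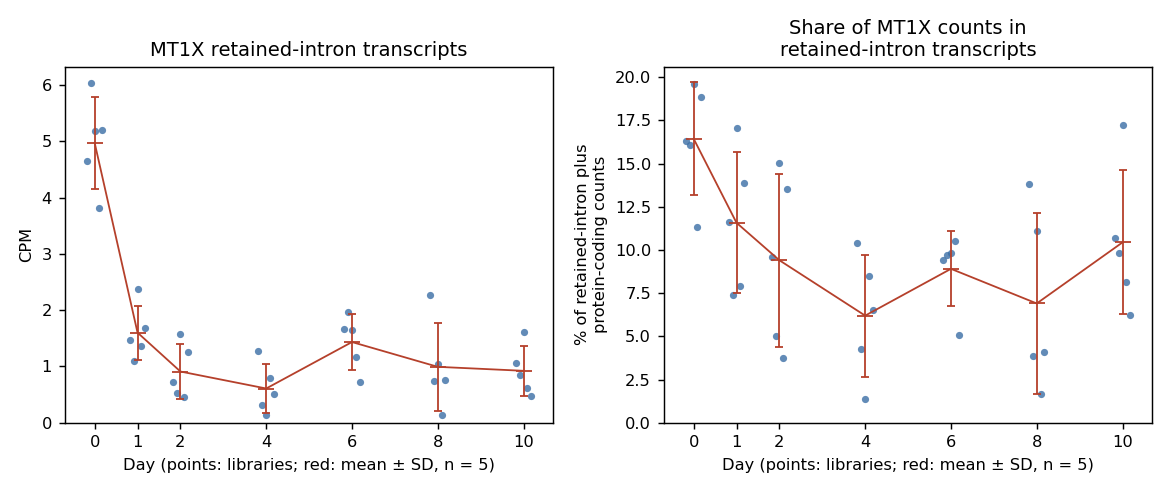
Left, level of the MT1X retained-intron entry in CPM; right, its share (%) of MT1X retained-intron plus protein-coding counts, both against day, with 1 point per library and red bars for mean ± SD (n = 5). The level was 3.81 to 6.03 CPM on day 0 and at most 2.37 CPM in any later library.

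Next, the other zinc transporters were considered. The SLC30 family mostly moves zinc out of the cytosol, across the plasma membrane or into organelles, and the SLC39 family mostly moves it in. Of 23 such genes other than SLC30A1, 9 were called lower and 4 higher on day 1, 10 lower and 1 higher on day 6, and 7 lower and none higher on day 10. Over all tested entries, 27.3% were lower and 25.4% higher on day 1, 17.0% and 17.5% on day 6, and 15.8% and 16.1% on day 10. The median log2 fold change over the 23 genes was -0.32, -0.28 and -0.11. The sharpest rise on day 1 was that of SLC30A6, which acts with SLC30A5 in loading the secretory pathway with zinc, from 37.3 ± 4.0 CPM (SD, n = 5) to 80.6 ± 5.7 CPM (log2 fold change 1.11 ± 0.08, edgeR adjusted p = 5.18e-16). SLC30A5 itself fell (-0.44 ± 0.07, adjusted p = 1.17e-06). SLC39A1, a plasma membrane importer, and SLC39A8, which carries zinc and manganese, rose by 0.59 ± 0.07 and 0.29 ± 0.05 (edgeR adjusted p = 2.75e-10 and 9.42e-06).

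The falls on day 1 were led by SLC30A9, a mitochondrial zinc transporter, which went from 39.8 ± 4.9 to 21.6 ± 3.5 CPM (log2 fold change -0.89 ± 0.10, edgeR adjusted p = 2.42e-10). SLC39A13 and SLC39A3 followed with -0.55 ± 0.13 and -0.51 ± 0.08 (edgeR adjusted p = 0.000268 and 5.8e-07). On day 10 the log2 fold change was 0.03 ± 0.08 for SLC30A6 and -0.23 ± 0.09 for SLC30A9, neither of which passed the test. SLC30A7, SLC39A3, SLC39A7, SLC39A11, SLC39A13 and SLC39A14 were lower on all 6 days. How many of all tested entries shared such a course was not determined. SLC39A6 was higher on day 1 (0.19 ± 0.05, edgeR adjusted p = 0.0028) and lower on every later day (-0.35 ± 0.06 on day 10, adjusted p = 2.66e-06). On day 10, log2 fold changes of the 7 transporters that were lower ranged from -0.18 to -0.52, while SLC30A1 was at -1.41.

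**Figure D4:**
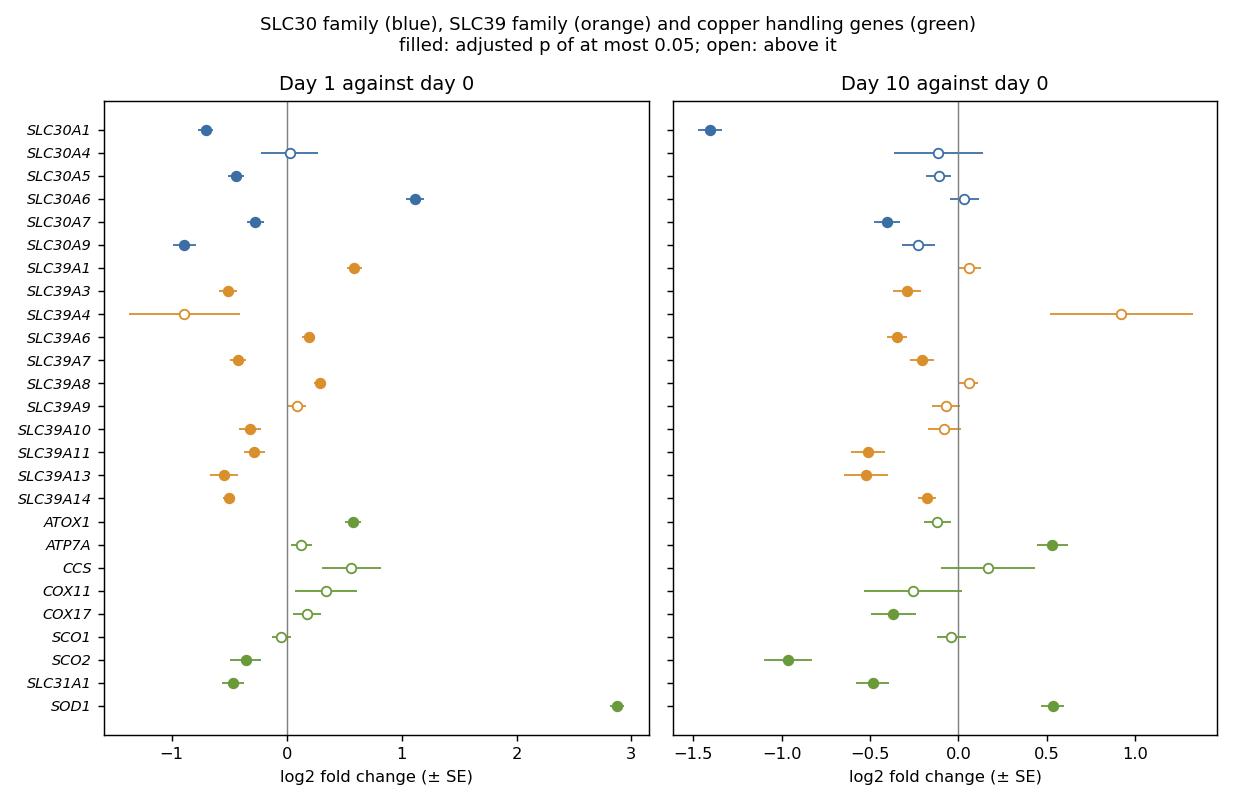
Log2 fold change against day 0 (x axis, ± SE) on day 1 (left) and day 10 (right) for SLC30A1 and for the zinc transporters and copper handling genes that passed the low-count filter; filled circles have an edgeR adjusted p of at most 0.05. On day 1, SOD1 was at 2.87 and SLC30A6 at 1.11, and on day 10, SLC30A1 was at -1.41.

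Copper is the other metal that metallothioneins hold, and genes of copper handling were called in both directions. Of 11 such genes, 2 were called lower and 2 higher on day 1 (27.3% and 25.4% of all entries) and 3 lower and 2 higher on day 10 (15.8% and 16.1%), shares not far from those of all entries. SOD1, the copper- and zinc-containing superoxide dismutase, was at 85.1 ± 5.2 CPM before the pulse and rose to 623 ± 11 CPM (SD, n = 5) by day 1 (log2 fold change 2.87 ± 0.06, edgeR adjusted p = 1.26e-32) and was higher on every later day (0.53 ± 0.06 on day 10, adjusted p = 6.37e-09). The copper chaperone ATOX1 rose on day 1 (0.58 ± 0.07, edgeR adjusted p = 4.79e-09), and the copper importer SLC31A1 and the cytochrome oxidase assembly factor SCO2 fell (-0.47 ± 0.09 and -0.36 ± 0.13, adjusted p = 4.28e-05 and 0.0208).

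Genes that respond to oxidants and to misfolded proteins were examined in the same libraries. HMOX1, the haem oxygenase induced by NRF2 and other stress factors, was at 3.98 ± 1.29 CPM before the pulse and rose to 187 ± 23 CPM (SD, n = 5) by day 1 (log2 fold change 5.56 ± 0.18, edgeR adjusted p = 2.55e-27). GCLM, for glutathione synthesis, and TXNRD1, a thioredoxin reductase, rose by 2.48 ± 0.09 and 2.01 ± 0.06 (edgeR adjusted p = 6.81e-26 and 2.18e-28). Of the heat shock genes driven by HSF1, HSPA1A rose by 3.34 ± 0.16 (edgeR adjusted p = 4.48e-21), HSPA1B rose by 0.54 ± 0.09 (adjusted p = 6.58e-07) and DNAJB1 fell (-0.53 ± 0.07, adjusted p = 4.07e-09). HSPA1A and HSPA1B are nearly identical, so the division of reads between them is uncertain. On day 1, 5 of these 6 genes were called higher than on day 0, while 6 of the 7 members were called lower. Of all tested entries, 25.4% were higher and 27.3% lower on that day. Among the members, the calls of MT1F and MTF1 were lost in some of the alternative fits. By day 10, GCLM and TXNRD1 were still higher (0.42 ± 0.09 and 0.17 ± 0.06, edgeR adjusted p = 0.000394 and 0.0287), and HSPA1B and DNAJB1 were lower (-0.51 ± 0.09 and -0.63 ± 0.07, adjusted p = 9.78e-06 and 2.41e-10). On that day MT1X, MT2A, MT1G, SLC30A1 and MTF1 were all lower.

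**Figure D5:**
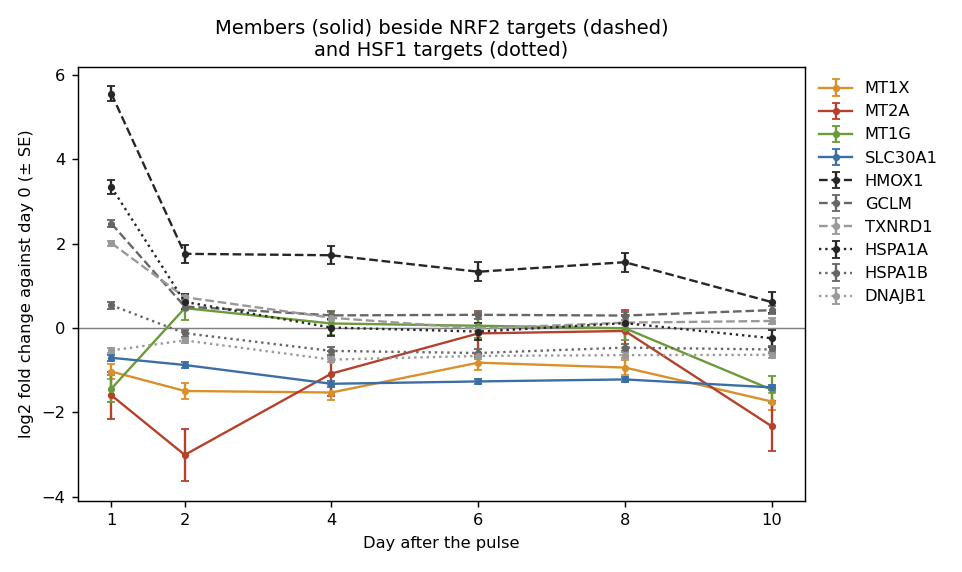
Log2 fold change against day 0 (y axis, ± SE) by day after the pulse (x axis) for 4 members (solid, coloured), 3 genes induced by NRF2 (dashed) and 3 heat shock genes (dotted). On day 1, HMOX1 was at 5.56 and HSPA1A at 3.34, whereas MT1X, MT2A, MT1G and SLC30A1 lay between -0.71 and -1.60.

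Last, each well-counted member was set beside the 12300 other entries that passed the filter, by the root mean square difference of the 6 log2 fold changes against day 0. Closest to SLC30A1 were TGS1, which forms the trimethylated cap of small nuclear RNAs (difference 0.0756), ARMC5 (0.0913) and the cytokine CSF1 (0.138). MTF1 had AMDHD1 (0.0724), TRMT61A, a subunit of a tRNA methyltransferase (0.0782), and TIMM10B (0.0822) as nearest. Nearest to MT1X were the transcription factor KLF6 (0.237), the phosphatase PPM1D (0.243) and ERRFI1, an inhibitor of the EGF receptor (0.247). The courses of MT1G and MT2A had looser matches, namely ITGA7, TSPEAR and CDH1 (0.290 to 0.387) for MT1G and ZNF404, RP11-566K11.6 and PAOX (0.570 to 0.703) for MT2A. On day 0, MT1G held 104 and MT2A 52 counts, against 751 for MT1X, 1540 for MTF1 and 4600 for SLC30A1. The difference includes counting noise, and its part in the looser matches was not tested. No member was among the nearest entries of another. These 6 fold changes share their day 0 libraries, and the likeness is a description without a test.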

How the data were processed

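The authors deposited estimated counts per gene symbol and transcript biotype. Per the study's methods, reads were pseudoaligned with Kallisto 0.44.0 to GENCODE release 28 transcripts (GRCh38), GC bias was adjusted for, and tximport collapsed the transcripts while correcting for their lengths, which can shift counts of short transcripts such as metallothioneins. The values are whole numbers and were used as deposited. Of 19665 protein-coding entries, 17999 had a count and were tested with edgeR 4.0.16 (estimateDisp, glmQLFit, glmQLFTest) in R 4.3.3, with TMM factors (0.929 to 1.08), day as the only factor and Benjamini–Hochberg adjustment. CPM carry no prior count, and SE is the log2 fold change divided by the root of F. Ratios were tested with exact two-sided permutation tests. The depth of each library, 6519392 to 10962890 counts, limits MT1E and MT1F. Count ratios of sparse genes carry 95% exact intervals, which cover counting error only. The test was first tried on simulated counts with known changes.

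The members and lists were chosen with earlier results of these data known. Named genes were the members, the other metallothioneins, the stress genes, the 3 largest called rises and falls on day 1 of the zinc and copper lists and those called on all 6 days, and the 3 entries nearest to each well-counted member. SLC30A5 and the later values of named genes were added after the values were seen. Alternatives were other scaling, a low-count filter, the replicate number as a block, only the 2 days compared, all biotypes summed, a 2-fold cutoff, other pseudocounts, DESeq2 1.42.0, and each library left out in turn. The proteome and metabolome were not analysed here.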

Additional observations from a re-analysis of the deposited data

Results flagged for a closer look

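Within 35 groups of 5 libraries (the 5 members that passed the low-count filter, on 7 days), the highest library stood apart from the others in 3, by Dixon's criterion of 0.71, and chance alone gives about 1 in 20 groups. These were MT1G on day 8 (4.81 CPM, the other libraries 3.06 to 3.52 CPM), MTF1 on day 8 (42.8 CPM, the others 31.1 to 34.4 CPM) and SLC30A1 on day 10 (65.2 CPM, the others 57.5 to 59.0 CPM).

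Levels of 3 members differed between consecutive days of which only one was called against day 0, and the difference between the days was itself called. MT2A rose by 1.93 on the log2 scale from day 2 to day 4 and then, from day 8 to day 10, had a log2 fold change of -2.26. MT1G rose by 1.91 from day 1 to day 2, with a log2 fold change of -1.46 from day 8 to day 10. MT1F, with 1 count on day 1 and 12 on day 2, had a log2 fold change of 2.66 between these days.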

How the results depend on the processing

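The counts of members called against day 0 (6, 4, 3, 3, 3 and 5) stayed within 1.5 times under every alternative except a 2-fold cutoff, which left 2 members on day 2 and 1 each on days 6 and 8. That cutoff also removed SLC30A1 and MTF1 on day 1 and MTF1 on days 4 and 10, where the counts fell but stayed within 1.5 times. With 1 library left out they were 5 to 6 on day 1 and 3 to 4 on day 4. Between consecutive days, the 4 members called from day 1 to day 2 became 2 to 4 and the 2 called from day 2 to day 4 became 1 to 2 with 1 library left out, and the latter was 1 in a fit of only these days. The 4 of 10 metallothionein pairs called on day 1 became 0 with a pseudocount of 0.25 CPM and 0 with raw counts plus 1. Each of these pairs contains MT1E or MT1F, with means of 0.281 and 0.347 CPM on day 0 and 0.098 and 0.034 CPM on day 1. These lie below the added 1 CPM, so such a ratio mostly follows the other gene of the pair. The cause of the lost calls was not tested. Signs turned only where log2 fold changes against day 0 had not passed the test. For day 8 these were MT2A (0.13) and MT1E (0.030) with all biotypes summed and MT1G without scaling factors (0.042), with only 2 days (0.010), with all biotypes (0.066) and with DESeq2 (0.00372). With 1 library left out, values ranged from -0.34 to 0.11 (MT2A, day 6), -0.24 to 0.19 (MT2A, day 8), -1.02 to 0.29 (MT1E, day 8), -0.48 to 0.31 (MT1F, day 2), -0.027 to 0.25 (MT1G, day 4), -0.081 to 0.18 (MT1G, day 6) and -0.14 to 0.13 (MT1G, day 8). Calls of MT1F on day 1 were lost in 6 of 10 such fits (-4.25 to -2.35), and those named in the report for MTF1, MT2A, MT1E and SLC30A1 also changed; the cause was not tested. Without scaling factors, the median log2 fold change of all filtered entries was 0.12, 0.13 and 0.11 on days 1, 2 and 4. MT1X passed the test from day 1 to day 2 (-0.46, adjusted p = 0.055) with the low-count filter (-0.46, edgeR adjusted p = 0.0426), with all biotypes (-0.53, 0.00689), with only 2 days (-0.45, 0.0271) and without 1 of 3 libraries (replicate 1 or 5 of day 1 or 4 of day 2). Deviations of same-numbered libraries correlated at -0.123 to 0.136 over 105 pairs (median 0.0012, against -0.00066 for different numbers). Yet 14 of 35 libraries correlated best with their own number, where 1 in 5 would by chance. Whether the replicate numbers mark paired subcultures could thus not be decided, and the main fit took the libraries as unpaired. With the replicate number as a block, the counts against day 0 were again 6, 4, 3, 3, 3 and 5, and 3 members were called from day 1 to day 2, MT1F no longer being among them (2.71, edgeR adjusted p = 0.0528). Depth limits MT1E, MT1F, MT1A, MT1H and MT3, for which 3 counts in a library are 0.322 to 0.601 CPM.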
